A study of Mus musculus with 54 samples.

Results

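Gm10800, Gm10801, Gm21738 and Gm16487 were the 4 genes examined, of 22424 genes listed for all 15 bulk RNA-seq libraries of mouse kidney and 32563 listed for at least 1. They were picked because their read counts were higher in intact kidneys than in dissociated kidneys, so that difference is given here as a description with no test. The series held 54 libraries, 15 bulk and 39 10x (droplet-based, single cell or single nucleus), in groups of 3 kidneys from 3 mice. All mice were untreated. Male C57BL/6J mice of the AFAPIL.1DEL line, litter mates aged 19 weeks, gave bulk libraries of cold-dissociated and of warm-dissociated suspensions. Balb/c males, litter mates aged 18 weeks, gave bulk libraries of intact kidneys. Balb/c females aged 15 weeks, former breeders, gave bulk libraries of intact kidneys and of cold-dissociated suspensions. Cold dissociation was done on ice with Bacillus licheniformis protease and DNase I, warm dissociation used an enzyme kit at body temperature, and intact kidneys were flash frozen before RNA extraction. Bulk RNA of the C57BL/6J and Balb/c male groups was depleted of ribosomal RNA and read at lengths of 150 and 51 bases. Bulk RNA of the Balb/c females was selected for poly(A) and read at 60 bases. In the males, intact and dissociated kidneys therefore differed also in strain, age, read length and experiment, whereas the Balb/c female groups shared strain, sex, age, RNA selection and read length.

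The 10x libraries came from fresh, cryopreserved and methanol-fixed cells of C57BL/6J kidneys after cold or warm dissociation, from fresh cold-dissociated cells and SN_FANS_3x500g nuclei of Balb/c males, and from cold-dissociated fresh or cryopreserved cells and 3 nucleus preparations of Balb/c females. SN_FANS_3x500g and SN_FANS_1x2000g nuclei were sorted by fluorescence after 3 washes or 1 wash. SN_sucrose nuclei were not sorted but passed through a sucrose cushion. Their lysis buffer had DNase I added, which the buffer of the sorted preparations did not list. At least 1 of the 4 genes was listed in 15 of the 39 10x libraries, all of Balb/c mice. Bulk totals were 5969212 to 8184923 reads in the C57BL/6J groups, 2326998 to 7879117 in the intact Balb/c males, and 21984996 to 31093949 in the Balb/c females. The kidney label was met, since all 10 proximal tubule markers examined (among them Slc34a1, the sodium-phosphate cotransporter, and the endocytic receptor Lrp2) were detected in all 5 bulk groups, with a summed level of 12245 to 25454 CPM (counts scaled to a library total of 1000000). One library stood apart. Over the 13246 genes with at least 3 CPM in 1 or more of the intact Balb/c male libraries, library 1 resembled its 2 companions. Pearson r of log2 CPM across these genes was 0.964 and 0.986, and 0.964 between libraries 2 and 3. The 4 genes with the largest excess of library 1 over the higher companion were Gm10801, Gm26870, Gm10800 and Gm21738. The excess was 4.44, 4.42, 3.72 and 3.35 on the log2 scale. The next gene was Scrt2 at 1.98. Gm10801, Gm26870, Gm21738 and Scrt2 reached 3 CPM only in library 1, so their place in this ranking is a description. Results that rest on this library are given with and without it. The replicates were kidneys of separate mice.

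Major satellite, also called gamma satellite, is the repeat that fills the pericentromeric heterochromatin of mouse chromosomes. It is an AT-rich tandem array of a unit of 234 bases, itself built from shorter related sub-repeats of about 58 bases. The arrays are packed with repressive histone marks and DNA methylation, and their transcripts are usually scarce and kept largely in the nucleus. Gene catalogues hold a few predicted genes at places where fragments of this repeat lie outside the assembled centromeres. No function is known for the 4 predicted genes.

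The sequences were first set against that description, because read counts for such genes depend on how alike their copies are. The GENCODE annotation of GRCm38 places Gm10800 (ENSMUSG00000075014.1) at chr2:98666547-98667301 on the minus strand, with 5 exons and a transcript of 660 bases. Gm10801 (ENSMUSG00000075015.3) lies close by at chr2:98662237-98664083 on the plus strand, with 4 exons and 504 bases. Gm21738 (ENSMUSG00000095280.1) lies at chr14:19415857-19418930 on the minus strand, with 6 exons and 681 bases. These 3 are annotated as protein-coding along their whole transcripts. Gm16487 (ENSMUSG00000078251.2) lies at chr11:113467977-113472014 on the plus strand and is annotated as a pseudogene with 2 exons and 4037 bases. The transcripts of the 3 predicted coding genes held 34.3 to 35.9% G and C, whereas that of Gm16487 held 51.5%.

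One repeat unit is shown for Gm21738, Gm10800 and Gm10801 and for Gm26870, a related gene described below. Further related genes, also described below, carry like sequence and are not shown. The start of Gm16487 is shown because it lacks that unit. Capitals mark each copy of TTTTCAGTTTTC, a stretch of 12 bases that recurs within the unit. The Gm21738 line is its exon 3 (chr14:19417133-19417366, minus strand, 234 bases, 64.5% A and T). The Gm10800 line is bases 161 to 385 of its transcript, the Gm10801 line bases 1 to 232, and the Gm26870 line is the reverse complement of bases 807 to 1040. The Gm16487 line is the first 120 bases of its transcript. Sequences are of GRCm38 transcripts in the annotation, 5′ to 3′.
Gm21738: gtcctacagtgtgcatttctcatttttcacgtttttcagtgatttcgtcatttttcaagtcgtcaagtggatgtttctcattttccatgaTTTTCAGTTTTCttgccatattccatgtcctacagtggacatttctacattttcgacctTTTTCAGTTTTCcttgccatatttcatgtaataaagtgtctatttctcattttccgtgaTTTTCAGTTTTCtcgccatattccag
Gm10800: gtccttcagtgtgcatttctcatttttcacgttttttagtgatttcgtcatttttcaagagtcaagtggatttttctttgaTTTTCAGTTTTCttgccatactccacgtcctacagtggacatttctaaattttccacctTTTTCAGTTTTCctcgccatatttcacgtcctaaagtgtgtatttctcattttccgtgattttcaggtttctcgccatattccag
Gm10801: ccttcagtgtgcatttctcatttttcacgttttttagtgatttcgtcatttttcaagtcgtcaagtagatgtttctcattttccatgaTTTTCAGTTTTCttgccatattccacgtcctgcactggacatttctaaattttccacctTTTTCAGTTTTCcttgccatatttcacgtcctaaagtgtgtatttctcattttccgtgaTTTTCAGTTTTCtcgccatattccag
Gm26870 (antisense): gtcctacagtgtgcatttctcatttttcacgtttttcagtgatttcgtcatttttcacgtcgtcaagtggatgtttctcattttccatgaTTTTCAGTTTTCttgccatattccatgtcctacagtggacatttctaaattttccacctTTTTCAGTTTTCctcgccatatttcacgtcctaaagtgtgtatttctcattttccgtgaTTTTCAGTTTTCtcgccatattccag
Gm16487: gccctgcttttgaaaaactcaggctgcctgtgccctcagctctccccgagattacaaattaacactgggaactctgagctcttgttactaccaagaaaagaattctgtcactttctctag

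The Gm10800, Gm10801 and antisense Gm26870 stretches were 89.7, 94.8 and 96.6% identical to the Gm21738 exon. Shifted against itself by 58 bases, that exon matched at 54.5% of its positions. Over whole transcripts, the best self-match of Gm21738 was at a shift of 234 bases (62.4% identity) with a further peak at 58 bases (58.6%). Gm10800 peaked at 225 bases (56.3%) and at 58 (51.2%), and Gm10801 at 231 (52.7%) and 58 (47.3%), against medians over all shifts from 20 to 300 bases of 30.7 to 31.7% in the 3 genes. Gm16487 showed no such period, since its best shift gave 28.1% against a median of 25.1%. The motif TTTTCAGTTTTC was picked as the stretch of 12 bases that recurs most in the transcripts of Gm10800, Gm10801 and Gm21738. Its counts of 7, 5 and 7 there are therefore a description. It was not found in Gm16487 on either strand. The 10 related predicted genes described below also repeat it, 9 of them 5 to 8 times and Gm26870 13 times on the reverse strand. Of 55327 genes beyond these, 104 (0.188%) held it on either strand. None of the 104 held it 3 times or more in 1 transcript. By their self-match at 58 and 225 to 234 bases, Gm10800, Gm10801 and Gm21738 carry satellite sequence, and Gm16487, although listed with them, does not. It is called a pseudogene from here on.

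**Figure D1:**
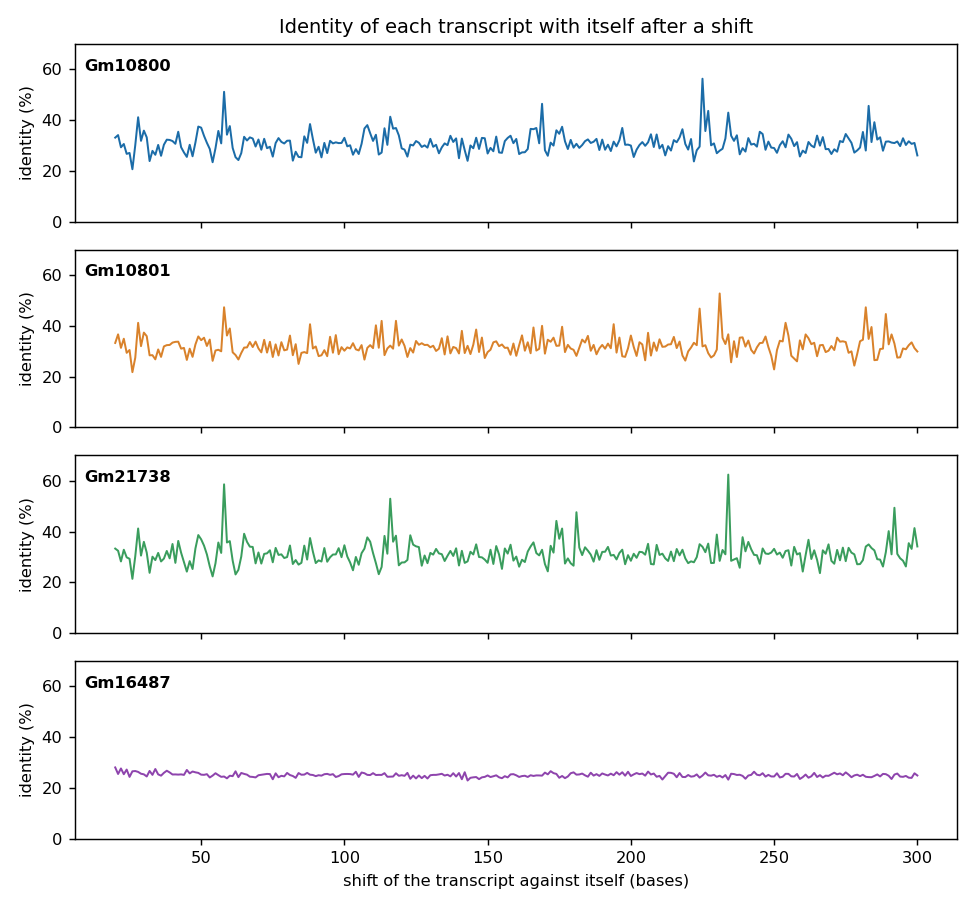
Identity of each transcript with itself (percent, vertical axes from 0 to 70) after a shift of 20 to 300 bases (horizontal axis). Peaks near 58 bases and at 225 to 234 bases stand out in Gm10800, Gm10801 and Gm21738, while the line of Gm16487 is flat and never passes 28.1%.

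Aligned with blastn (e-value of at most 1e-10, at least 100 aligned bases) against the transcripts of 55341 genes, each of the 3 satellite genes matched the same 12 others. These were the other 2 satellite genes and 10 related predicted genes packed between chr9:3000282 and chr9:3038316. Identity was 88.3 to 90.4% among the 3 and 88.7 to 94.9% with 9 of the related genes. The remaining related gene, Gm26870, is a long intergenic non-coding RNA on the minus strand that spans 38032 bases and matched in antisense orientation at 86.9 to 89.2%. Gm16487 aligned with none of these genes. It matched 220 other genes over stretches of at most 209 bases (median from base 1363 to base 1494 of its transcript), at 69.6 to 82.2% identity. Reads from 1 copy of the satellite can align to another, and whether the study counted reads with several alignments is not given in the sources used here. The split of reads among Gm10800, Gm10801 and Gm21738, and between them and the related genes, is therefore uncertain.

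In the Balb/c females, where intact and dissociated kidneys were most alike in other respects, all 4 genes were higher in intact kidneys. Gm10800 had 420, 353 and 786 reads in the 3 intact libraries and 5, 7 and 8 in the 3 cold-dissociated ones. Those were 13.5, 11.8 and 27.0 CPM against 0.227, 0.266 and 0.338 CPM, and the groups lay far apart. Its pooled ratio was 62.2-fold (95% exact interval 40.2 to 102, for counting error only). Gm10801 had 53, 52 and 103 reads in intact kidneys against 2, 0 and 1, a ratio of 55.4 (18.7 to 271). Gm21738 had 38, 31 and 56 reads against 0, 2 and 1, a ratio of 33.3 (11.1 to 164). Every intact library exceeded every cold-dissociated one for both genes, but with so few reads the size of the ratio depended on single cold-dissociated libraries. Taken from mean CPM with TMM scaling rather than from pooled counts, the log2 ratio was 5.71 for Gm10801, but 6.78 without cold library 1 and 5.12 without cold library 2. For Gm21738 it was 5.16, but 4.57 and 6.04 without the same libraries. The pseudogene Gm16487 had 19, 14 and 16 reads in intact kidneys and none in the cold-dissociated libraries. With 3 reads over the cold group as the floor, that was at least 13.0-fold higher. In this pair of groups 18.6% of the 16538 genes tested did not overlap and were higher in intact kidneys, and edgeR called 12.1% of them higher. All 4 genes did not overlap, but they were chosen on this difference, so nothing is read from that count.

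Means in the intact Balb/c female kidneys were 17.4 ± 8.33 CPM for Gm10800, 2.33 ± 1.05 for Gm10801, 1.39 ± 0.468 for Gm21738 and 0.543 ± 0.0717 for Gm16487 (SD, n = 3). Per kilobase of transcript, Gm10800 stood at 17.9 to 40.9 CPM, Gm10801 at 3.38 to 7.02, Gm21738 at 1.52 to 2.83 and Gm16487 at 0.116 to 0.151, an order that held in each of the 3 libraries. The 3 satellite genes varied together among these mice, with library 3 the highest for each, whereas library 1 was the highest for Gm16487. In bulk RNA, fewer cells of a type and less RNA per cell cannot be told apart. The DNase I of the cold dissociation, a step that intact kidneys did not go through, also goes with this contrast. Its part in the difference was not tested.

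Several other gene lists moved between the intact and cold-dissociated Balb/c female libraries. The summed level of 8 adipocyte genes was 55.7 to 75.0 CPM in intact kidneys and 30.1 to 32.7 CPM after cold dissociation, where 2 of the 8 (Lep and Retn) had no reads. The 5 erythroid genes stood at 57.04 to 222 CPM in intact and 250 to 991 CPM in cold-dissociated libraries. The 10 proximal tubule markers stood at 13188 to 15861 against 12245 to 12909 CPM. The 6 RNAs known to stay in the nucleus, such as Malat1 and Neat1, overlapped, at 2290 to 3059 CPM in intact and 2452 to 3197 CPM in cold-dissociated libraries. The 10 RNAs that mostly lack a poly(A) tail, among them histone mRNAs, were at 157 to 208 against 95.2 to 144 CPM. Of 268 olfactory, vomeronasal and trace amine receptor genes, 27 were listed for all 15 bulk libraries. The summed level of these 27 was lower in intact kidneys (4.48 to 5.12 against 7.06 to 9.23 CPM). The part of these differences in the levels of the 4 genes was not tested.

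Bulk libraries of the C57BL/6J suspensions held almost no reads of the 4 genes. Gm10800 had 0 reads in all 6 libraries, which allows at most 0.367 to 0.503 CPM in a library (3 counts, counting error only). Gm16487 also had 0 reads in all 6. Gm10801 had 2, 1 and 0 reads in the 3 warm-dissociated libraries and 0 in the cold-dissociated ones. Gm21738 had 0, 3 and 1 reads after warm and 1, 0 and 2 after cold dissociation, so the 2 protocols overlapped. None of the 4 genes passed the filter on low counts in the test of warm against cold dissociation, where edgeR called 8.68% of 14102 genes. At this depth no difference between the protocols was detectable for them. The cold-dissociated groups of the 2 strains were also set side by side. Gm10800 stood at 0 CPM in C57BL/6J and at 0.227 to 0.338 CPM in Balb/c females, but again no gene of the 4 passed the filter, where edgeR called 72.0% of 15882 genes. A count of 3 reads equals 0.367 to 0.503 CPM in these C57BL/6J libraries, above the level in each Balb/c library. These libraries, too, had entered the choice of the genes, so no test is given. Strain, sex, age, RNA selection, read length and batch all differed between these groups and cannot be told apart.

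The intact Balb/c male kidneys varied far more than the female ones. Gm10800 had 2055, 45 and 13 reads, or 260.8, 19.3 and 2.66 CPM, so library 1 alone held 2055 of the group's 2113 reads. Gm10801 had 448, 5 and 5 reads (56.9, 2.15 and 1.02 CPM). Gm21738 had 140, 3 and 4 reads (17.8, 1.29 and 0.818 CPM). In library 1 the summed level of these 3 genes was 32.3-fold (25.7 to 41.2) above the pooled libraries 2 and 3. Gm16487 did not follow them, with 0 reads in libraries 1 and 2 and 1 read in library 3. Mean levels were 94.3 ± 144 CPM for Gm10800, 20.01 ± 31.9 for Gm10801 and 6.63 ± 9.65 for Gm21738 (SD, n = 3). Without library 1 they were 11.0 ± 11.8, 1.59 ± 0.796 and 1.05 ± 0.333 CPM (n = 2).

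Set beside the cold-dissociated C57BL/6J suspensions, the intact male kidneys were higher for the 3 satellite genes. Gm10800 was at least 954-fold higher (at least 54.8-fold without library 1) and Gm10801 at least 207-fold (9.45-fold without it), with 3 reads over the C57BL/6J group as the floor. These ratios are of pooled counts, in which the 3 intact male libraries stood at 139.98 CPM for Gm10800 and 30.3 CPM for Gm10801, above the means, because library 1 was also the deepest. Gm21738, which had 3 reads in that group, was 66.4-fold higher (22.3 to 326), or 6.61-fold (1.51 to 39.6) without library 1. For these 3 genes every intact library exceeded every cold-dissociated one, as it did for 26.0% of the 14095 genes tested in this pair, and edgeR called 20.8% higher. Gm16487, with 1 read against none, allowed no statement. Strain, age, read length, experiment and dissociation all differ here and cannot be told apart. The 6 nuclear RNAs also stood at 21100 to 26076 CPM in the intact male kidneys against 11786 to 12359 CPM in the cold-dissociated C57BL/6J suspensions. The other lists moved as well. Adipocyte genes stood at 58.01 to 86.1 against 16.0 to 21.4 CPM (with Lep and Cidec at 0 in the suspensions), RNAs that mostly lack a poly(A) tail at 1712 to 4146 against 886 to 1107 CPM, erythroid genes at 109.6 to 119 against 3169 to 4407 CPM, and proximal tubule markers at 19037 to 19978 against 24244 to 25454 CPM. The olfactory, vomeronasal and trace amine receptor genes overlapped. The part of these differences in the result was not tested.

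**Figure D2:**
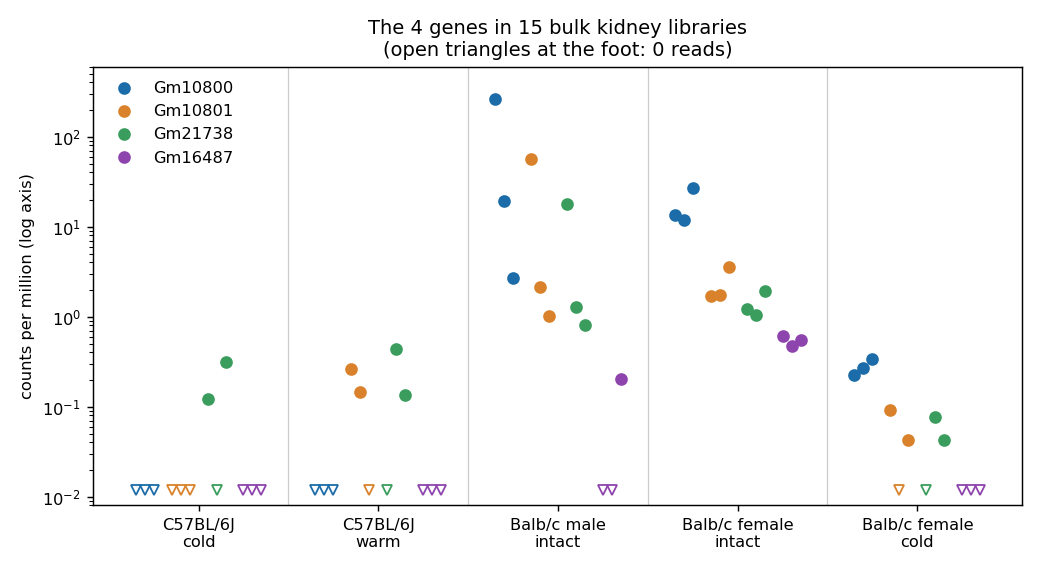
Levels in CPM on a log axis for Gm10800, Gm10801, Gm21738 and Gm16487 in the 3 libraries of each of 5 bulk groups, with open triangles at the foot for libraries with 0 reads. Gm10800 ran from 11.8 to 27.0 CPM in the intact Balb/c female kidneys and from 2.66 to 260.8 CPM in the intact males, and stayed at or below 0.338 CPM in all dissociated kidneys.

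The intact male and intact female libraries had both entered the choice of the genes, so the difference between them is given as a description with no test. The log2 fold change fitted by edgeR, males over females, was 2.78 for Gm10800, 3.60 for Gm10801 and 2.81 for Gm21738, beside a median of -0.03 over all 16338 genes tested. These values rested on 1 library. Without male library 1 they turned to -0.80, -0.53 and -0.32. Of all genes tested, 52.1% were called and 26.7% were called higher in the males, the 3 satellite genes among them, and nothing is read from that count. The CPM values of the 2 groups overlapped for each of the 3 genes. Gm16487 went the other way, at 0 to 0.205 CPM in the males and 0.468 to 0.611 CPM in the females, but it fell under the filter on low counts. The groups differ in sex, age, RNA selection, read length and batch, which cannot be told apart.

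Of reads on the 3 satellite genes, Gm10800 took 81.0 to 83.2% in the intact females and 59.1 to 84.9% in the intact males. Library 1 of the males, at 77.8% Gm10800, 17.0% Gm10801 and 5.30% Gm21738, lay within the spread of its companions in Gm10800 and Gm10801 and just under the lower of them (5.66%) in Gm21738. The 2 cold-dissociated groups held 26 such reads (Balb/c females) and 3 (C57BL/6J), too few for shares.

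The 10 related genes on chromosome 9 had 48 reads in the intact female kidneys, where the 3 satellite genes had 1892, and the 9 listed for the intact males had 172 against 2718. In the cold-dissociated C57BL/6J suspensions the 4 listed had 4 against 3. Only those 4 (Gm26870, Gm10717, Gm10718 and Gm11168) were listed for all 15 libraries. The summed level of these 4 was 18.3 CPM in male library 1 but 0 and 0.205 CPM in male libraries 2 and 3, 0.0965 to 0.584 CPM in the intact females and at most 0.335 CPM in any dissociated library. Gm26870, the antisense RNA, had 115 reads in male library 1 (14.6 CPM, near the 17.8 CPM of Gm21738), 0 and 1 in its companions and 0, 4 and 1 in the intact females. Gm10717, with the next highest mean, had 20 reads in male library 1 and 2, 3 and 10 in the intact females. Gm10722 had 9 in male library 1 and 1 in each intact female. Gm11168 had 7 in male library 1 and 0, 0 and 2 in the intact females. None of the 10 passed the filter in any bulk test. Without strand in the counting, a sense read and an antisense read cannot be told apart where such genes overlap, and the setting is not given in the sources used here.

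In the 10x libraries the genes could be followed down to single barcodes. Gm10800, Gm10801 and Gm21738 were listed in the Balb/c male cells, the Balb/c male nuclei and the 3 groups of Balb/c female nuclei. They were not listed in the C57BL/6J cells or the Balb/c female cells, and Gm16487 was listed in none. The study kept only genes detected in at least 10 cells, and in the files only 1.39% of 509260 values above 0 (summed per gene and library) came from fewer than 10 barcodes. A listed 0 is therefore no measured 0. At 1 UMI (unique molecular identifier, a tag of 1 molecule) a barcode, up to 9 UMIs can lie behind it. That limit was 3.50 to 6.60 CPM in the male cells and 0.323 to 0.541 in the fresh female cells, where the genes were not listed at all. The files of female cells list mitochondrial genes, unlike those of the male cells and the nuclei, and without these the female limit was 0.484 to 0.788 CPM.

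In the Balb/c male nuclei, Gm10800 had 46, 115 and 142 UMIs (4.90, 15.0 and 18.6 CPM). Gm10801 had 12, 35 and 32 UMIs (1.28, 4.56 and 4.19 CPM). Gm21738 was listed at 0 in libraries 1 and 2 and had 19 UMIs in library 3. All 3 genes were listed at 0 in the 3 libraries of male cells. Gm10800 in nuclei therefore lay at 4.90 to 18.6 CPM beside limits of 3.50 to 6.60 CPM in cells, and nucleus library 1 fell within those limits. In edgeR's fit Gm10800 was called higher in nuclei, as were 53.6% of 14027 genes (81.3% in either direction), but it passed the filter on low counts only through the nuclei and the zeros of the cells come from the filter of the files, so nothing is read from that call. Intronic reads were counted for nuclei but not for cells, which cannot be told apart from the nucleus itself.

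The 3 nucleus preparations of Balb/c females held the satellite genes at low levels. In SN_FANS_3x500g nuclei Gm10800 had 38, 33 and 39 UMIs (1.25, 1.08 and 1.43 CPM). In SN_sucrose nuclei it had 27, 20 and 16 (0.957, 0.668 and 0.612 CPM). In SN_FANS_1x2000g nuclei it had 285, 32 and 35 (8.19, 1.03 and 0.995 CPM), so library 1 stood far above the other 8. Gm21738 was more even, with 36, 36 and 25 UMIs in SN_FANS_3x500g, 41, 18 and 31 in SN_FANS_1x2000g and 16, 20 and 26 in SN_sucrose. Gm10801 was the scarcest in most libraries, with 12, 15 and 16, then 51, 0 and 13, then 18, 11 and 0 UMIs, the zeros being listed zeros. It exceeded Gm21738 in library 1 of SN_FANS_1x2000g (51 against 41) and library 1 of SN_sucrose (18 against 16).

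The excess in SN_FANS_1x2000g library 1 came from 1 barcode of 8993. It held 249 of the 285 UMIs of Gm10800 (87.4%), 25 of the 51 of Gm10801 and 8 of the 41 of Gm21738. Together these 282 UMIs were 4.50% of its 6271 UMIs, against 95 UMIs, or 0.000273%, in all other barcodes of the library. The next highest barcode for Gm10800 held 5 UMIs. Its total was not extreme among the barcodes in the file, since 93.0% of them had as many UMIs or fewer, and it detected 2404 genes. The study had already removed barcodes with many genes or an outlying ratio of UMIs to genes, so this compares the barcode only with those kept. Related genes were present too, with 12 UMIs of Gm10722, 11 of Gm26870, 7 of Gm10718 and 2 of Gm10717. Gm10800 was its second gene, after the nuclear RNA Malat1 (1349 UMIs) and before the growth hormone receptor Ghr (127). It fell among proximal tubule-like nuclei at both clustering resolutions, with 7 UMIs of the fatty acid transporter Slc27a2, 2 of the receptor Cubn and 1 of Lrp2, but it also held markers of other classes. These were Umod (3 UMIs) and Egf (2) of the ascending loop of Henle, Sgms2 (2) of the distal convoluted tubule, Aqp3 (1) of principal cells and Csf1r (1) of macrophages. Without it the library stood at 1.03 CPM for Gm10800, 0.747 for Gm10801 and 0.948 for Gm21738. The Gm10801 level of the library was still above those of the other 8 female nucleus libraries, of which SN_sucrose library 1 came next at 0.638 CPM. Of its remaining 26 Gm10801 UMIs, however, 6 lay in 1 further barcode.

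Among the other barcodes each of the 3 satellite genes was rare. No other barcode held over 6 UMIs of 1 of these genes, and in the male nuclei none held over 2. Gm10800 was seen in 0.185 to 0.502% of barcodes in the female nuclei and in 0.534 to 1.83% in the male nuclei. Barcodes with both Gm10800 and Gm10801 numbered 2, 0 and 2 in the 3 male libraries. In the female libraries, counting the high barcode, 0 to 3 barcodes held this pair and 1 to 5 held both Gm10800 and Gm21738. The 5 were among 28 barcodes with Gm10800 and 32 with Gm21738, of 7628 in SN_FANS_3x500g library 2. Whether barcodes held 2 of these genes together more often than their separate frequencies give was not tested. No cell type is known to lack these transcripts, so no background share from free RNA could be set beside them. Libraries of female nuclei shared 0.144 to 0.367% of their barcode sequences in pairs, male nuclei 1.05 to 1.32% and male cells 0.405 to 0.579%.

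No satellite gene was called between the female nucleus preparations by edgeR, where 34.9, 45.3 and 13.1% of genes were called in the 3 pairs. For SN_FANS_1x2000g against SN_FANS_3x500g, the log2 difference of Gm10800 was 1.45 ± 0.858 (adjusted p = 0.228) with the barcode and -0.31 (adjusted p = 0.286) without it. For SN_sucrose against SN_FANS_3x500g it was -0.75 ± 0.282 (adjusted p = 0.0611), with all 3 SN_sucrose libraries below all 3 SN_FANS_3x500g libraries, as for 26.5% of genes tested. With the listed zeros of all genes set at 9 UMIs, that difference was -0.75 with an adjusted p of 0.0295 in edgeR. Gm10800 has no listed zero in these 6 libraries, so only the values of other genes changed. Nothing is read from the call under that setting. For SN_sucrose against SN_FANS_1x2000g it was -2.18 ± 0.915 (adjusted p = 0.160) with the barcode and -0.41 (adjusted p = 0.339) without it. At an unadjusted p of at most 0.05 in edgeR, 0, 1 and 1 of the 3 genes passed in the 3 pairs. The genes called after adjustment, 34.9, 45.3 and 13.1% of all, pass that threshold too, so nothing is read from these counts. DESeq2 called none of the 3 genes, and its share over all genes is not given here. SN_sucrose differs from the sorted preparations in the cushion, the lack of sorting and the added DNase I, which cannot be told apart.

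**Figure D3:**
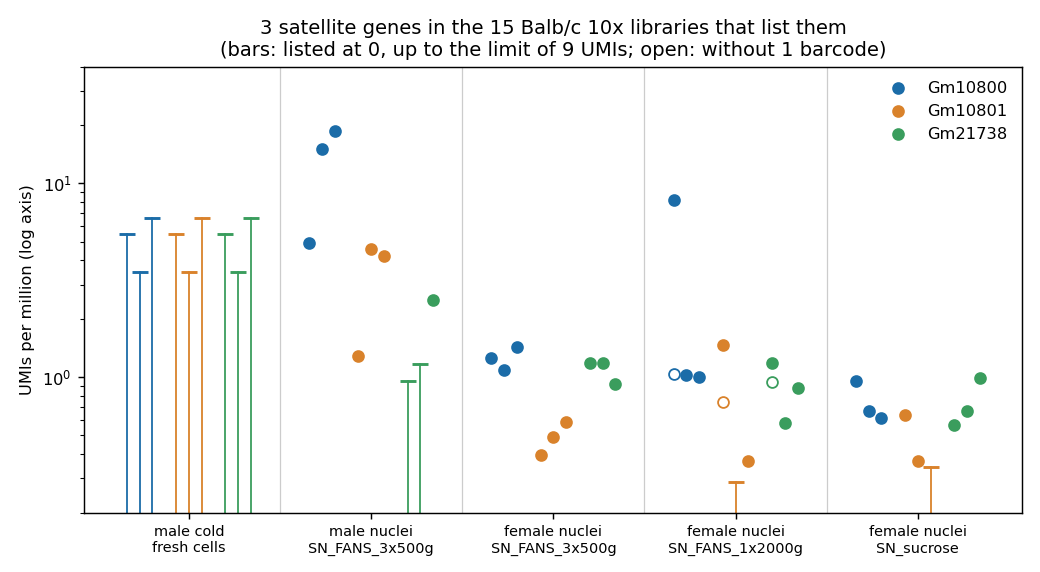
UMIs in CPM on a log axis for Gm10800, Gm10801 and Gm21738 in the 15 Balb/c 10x libraries that list them, where bars reach up to the limit of 9 UMIs for libraries that list a gene at 0. Open circles give SN_FANS_1x2000g library 1 without its highest barcode, where Gm10800 falls from 8.19 to 1.03 CPM.

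The makeup of the satellite UMIs is given as a description, with no test. In library 3 of the male nuclei, the one male library that lists all 3 genes above 0, Gm10800 took 73.6% of them. In the female libraries that do so it took 39.2 to 48.8% and Gm21738 26.2 to 42.9%, without SN_FANS_1x2000g library 1. Libraries with a gene listed at 0 ran wider, since their sums leave out up to 9 UMIs. Gm10800 took 76.7 and 79.3% in the other 2 male libraries, 64% in SN_FANS_1x2000g library 2 and 38.1% in SN_sucrose library 3. SN_FANS_1x2000g library 1, at 75.6% Gm10800 and 10.9% Gm21738, had 37.9 and 34.7% once the barcode was left out. Chemistry, sex, age and batch differ between the male and female nuclei and cannot be told apart, and the share of each gene may depend on how reads of these similar copies were assigned.

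Gm26870, the antisense relative, behaved otherwise in 10x data than in bulk. It had 195 to 317 UMIs in each library of female nuclei (7.003 to 10.5 CPM) and 103, 123 and 174 UMIs in the male nuclei. It was also listed in the female cells, with 28, 33 and 23 UMIs in fresh and 34, 16 and 20 in cryopreserved cells. edgeR called it higher in each nucleus preparation than in fresh female cells, by 1.50 ± 0.193 for SN_FANS_3x500g (adjusted p = 8.71e-05), 1.68 ± 0.166 for SN_FANS_1x2000g (adjusted p = 1.32e-05) and 1.79 ± 0.178 for SN_sucrose (adjusted p = 1.53e-05) on the log2 scale. Of all genes tested, 43.8, 44.4 and 44.5% were called higher in these 3 pairs. Its introns were counted in nuclei only. Between the nucleus preparations it was not called, with differences of 0.14 to 0.28 on the log2 scale. It was higher in cryopreserved than in fresh cells by 1.30 ± 0.288 (adjusted p = 0.00451), where 28.9% of genes were called higher. The limit of 9 UMIs was 1.47 to 1.90 CPM in the cryopreserved libraries, above its 1.18 to 1.45 CPM in fresh cells. At its fresh level it would have been unlisted after cryopreservation and untested, so nothing is read from that call. By the study's account the cryopreserved cells were aliquots of cold-dissociated suspensions that were also profiled fresh. The labels do not tell which libraries came from the same suspension, so the test treats the 6 as independent. Of the other 9 related genes, Gm10717, Gm10718 and Gm10722 were listed in the female nuclei and Gm10722 in the male ones, none of them called between preparations.

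To place the transcripts among kidney cell types, nuclei were clustered without the 4 genes and their relatives and named from marker genes. The 74454 female nuclei fell into 62 clusters, with 2.81% of nuclei left unnamed, and the 23849 male nuclei into 26, with 4.04% unnamed. With the high barcode left out, Gm10800 was seen in every named class of female nuclei. It had only 2 UMIs in podocyte-like and in macrophage or dendritic-like nuclei, and 3 in descending or thin loop of Henle-like ones. It stood at 1.84 CPM in endothelial-like nuclei (95% exact Poisson interval 1.31 to 2.51, 40 UMIs) and at 1.02 in proximal tubule-like nuclei (0.859 to 1.19, 149 UMIs). Of the 10522 endothelial-like nuclei, 116 formed a cluster led by Ak5 and Fam65c, which were also among the leading genes of mesangial, mural or fibroblast-like clusters, and 108 formed one led by Havcr1. At a clustering resolution of 1, where a cluster led by Ak5 and Fam65c was unnamed, the class stood at 1.87 CPM (1.34 to 2.55). Ascending loop of Henle-like nuclei stood at 0.828 (0.555 to 1.19) and distal convoluted tubule-like nuclei at 0.517 (0.208 to 1.07). The endothelial-like class, over the 9 libraries, ran from 0.387 to 4.24 and the proximal tubule-like class from 0.387 to 1.59 CPM, so the libraries overlapped. Gm21738 stood at 1.33 (0.894 to 1.92) in endothelial-like, 1.08 (0.916 to 1.26) in proximal tubule-like and 0.428 (0.240 to 0.706) in ascending loop of Henle-like nuclei. Gm10801 stood at 0.782 (0.456 to 1.25) in endothelial-like and 0.430 (0.330 to 0.550) in proximal tubule-like nuclei. It had no UMI in the intercalated-like and connecting tubule-like classes, which by counting error alone allows up to 0.383 and 0.491 CPM. A cluster of 1267 nuclei named principal-like had the connecting tubule marker Trpv5 among its leading genes. The connecting tubule-like class may therefore not hold all such nuclei. SN_FANS_1x2000g library 2 and SN_sucrose library 3 list Gm10801 at 0, where up to 9 UMIs can be hidden. These Gm10801 levels and limits may therefore be too low.

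In the male nuclei Gm10800 was again seen in all 11 named classes, though not in each with over 2 UMIs. It stood at 12.5 (10.8 to 14.4) in proximal tubule-like nuclei, 9.94 (6.37 to 14.8) in ascending loop of Henle-like and 9.83 (5.38 to 16.5) in endothelial-like nuclei. The highest class with over 2 UMIs, the intercalated-like one, stood at 20.9 (12.0 to 34.0) from 16 UMIs. Over the 3 libraries, whose own levels differed, it ran from 11.7 to 35.5 CPM and the proximal tubule-like class from 5.87 to 17.1 CPM, so the libraries overlapped. All these intervals overlap. The male class named distal convoluted tubule-like is not described, since 379 of its 1698 nuclei formed a cluster led by the connecting tubule markers Slc8a1 and Calb1. They cover counting error only, and the classes were not tested against each other. No doublet caller was run, and doublets of 2 nuclei were not removed.

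**Figure D4:**
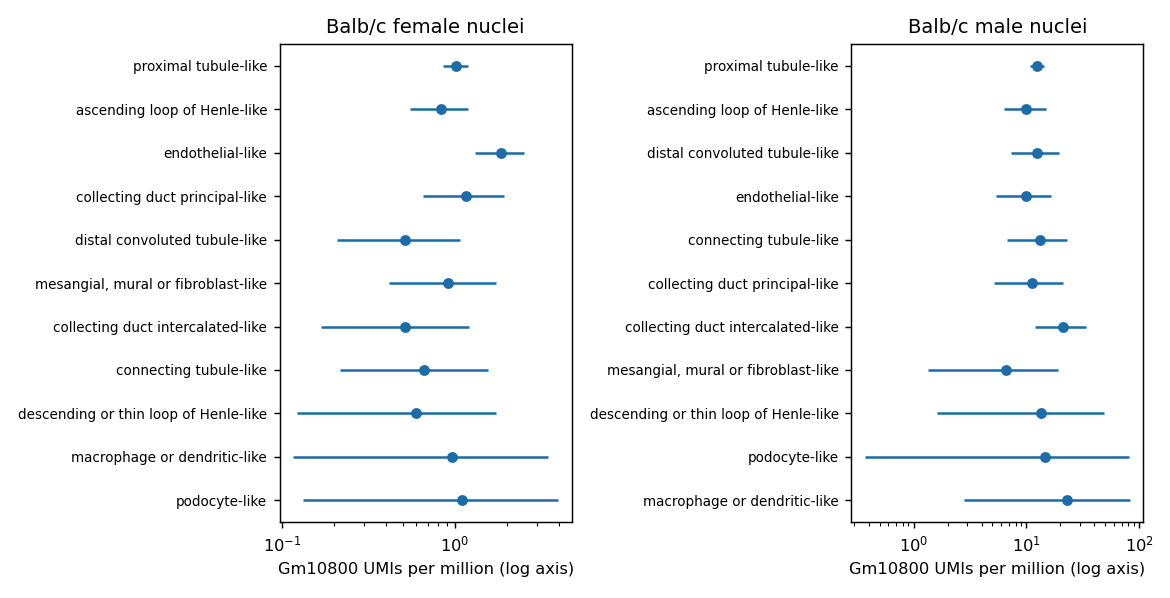
Level of Gm10800 in CPM of the UMIs of each named class (points, log axes) with 95% exact Poisson intervals (lines), for Balb/c female nuclei without the high barcode (left) and Balb/c male nuclei (right), ordered by class size. Proximal tubule-like nuclei stood at 1.02 CPM in the females and 12.5 in the males, and the intervals of most classes overlap that value.

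Across the 15 bulk libraries, which share strain, RNA selection and read length within experiments, the genes nearest to each of the 3 satellite genes were the other 2, an order that did not hold without male library 1. By Pearson r of log2(CPM + 0.5) over 14848 genes with a mean of at least 1 CPM, Gm10801 was nearest to Gm10800 (0.953) and Gm21738 to Gm10801 (0.978). The next genes were Mpv17l for Gm10800 (0.922), Gltscr1 for Gm10801 (0.865) and Slc22a2, an organic cation transporter of the proximal tubule, for Gm21738 (0.860). Without male library 1 the nearest to Gm10800 was Gss, which makes glutathione (0.981), before Gm10801 (0.974), and those nearest to Gm21738 were Psca (0.940) and Cyp51, an enzyme of cholesterol synthesis (0.933), before Gm10801 (0.933). The pseudogene Gm16487 was nearest to Hpgd, the prostaglandin-degrading dehydrogenase (0.958), Ccdc93 (0.952) and Aadat (0.9498), with r of 0.312 to 0.506 to the 3 satellite genes, or 0.782 to 0.805 without male library 1. These values describe 15 libraries in which groups differ in many genes at once, and are no test of a relation.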

How the data were processed

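RNA was measured in 54 kidney libraries. For bulk libraries the authors removed ribosomal reads with TagDust2, aligned with STAR 2.6.1a to GRCm38, ran Picard on duplicates, and deposited raw read counts from featureCounts. For 10x libraries they ran Cell Ranger 2.1.1 on mm10, used exonic reads in cells but also intronic ones in nuclei, called cells with EmptyDrops, kept genes seen in at least 10 cells, and deposited raw UMI counts. They also kept only barcodes within a set range of gene numbers and removed those with an outlying ratio of UMIs to genes. Tool versions follow the submitters' processing notes. Strandedness and the treatment of reads with several alignments are not given in the sources used here.

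The 4 genes and all lists were chosen with earlier results of these data known. Counts were summed per library, and a level (CPM) is the count scaled to a library total of 1000000. The main test was quasi-likelihood F in edgeR 4.0.16 (R 4.3.3, TMM, filterByExpr), run on all genes listed in both groups, 3 libraries a group, with Benjamini-Hochberg adjustment over all genes tested and a threshold of 0.05. The SE is the log2 fold change divided by the root of the test statistic. Ratios have exact 95% intervals of pooled counts. In simulations of intact males against females (16338 genes, 200 changed 4-fold), 90.5% were recovered with 3.72% false calls. For SN_sucrose against SN_FANS_3x500g nuclei (17304 genes) these were 96.0% and 4.95%. Both simulations set the same dispersion for every gene. The satellite genes varied more than that in the intact male kidneys, so these rates do not cover them. Alternatives were DESeq2 1.42.0, RLE size factors, no filter, the exact test of edgeR (bulk) and each library left out. Settings on listed zeros and on 1 barcode were added after seeing the data. Nuclei were clustered with leidenalg 0.10.2 (2000 variable genes, 30 principal components, 20 neighbors, resolution 2 or 1). A cluster was named by at least 3 markers with a detection share of 0.1 or more and a fold over the rest of 1.5 or more. Transcripts were compared with blastn 2.17.0+. Genes named beside the 4 were the related genes with the 4 highest bulk means, the 3 with the highest r to each gene, genes of the listed cell type and RNA lists, and, after values were seen, the leading genes of 1 library and 1 barcode and the listed relatives in 10x files. No genome sequence, promoter or protein of the 4 genes was used here.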

Additional observations from a re-analysis of the deposited data

How the results depend on the processing

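For the intact Balb/c males against females, whose libraries had entered the choice of the genes so that nothing is read from calls, 3 of the 4 genes were called, 0 by DESeq2, 4 with no filter and 0 to 4 with each library left out. Over those left out, the log2 difference of Gm10800 ran from -0.80 to 3.31, of Gm10801 from -0.53 to 4.12 and of Gm21738 from -0.32 to 3.30, and male library 1 alone turned the sign. Gm10800 lost its call also without each of the 3 female libraries (2 genes called). With no filter Gm16487 was lower in the males (-2.82). The log2 ratio of the 4 genes together between intact males and cold-dissociated C57BL/6J suspensions was 9.66, or 6.54 to 10.98 with each library left out, lowest without male library 1. Between the cold-dissociated groups, 1 gene was called with no filter (Gm10800, with 0 reads in C57BL/6J) and 0 otherwise, from which nothing is read either.

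For male nuclei against cells, where calls follow from listed zeros, 1 gene was called, and 2 by DESeq2, with no filter and with listed zeros at 9 UMIs (Gm10800 higher and Gm21738 lower in the last, Gm10800 and Gm10801 otherwise), and 1 to 2 with each library left out. For SN_FANS_1x2000g against SN_FANS_3x500g, leaving out the high barcode turned Gm10800 from 1.45 to -0.31 and Gm10801 from 0.34 to -0.38, or to -0.32 and -0.063 with zeros at the limit too. With each library left out these 2 ran from -0.35 to 1.90 and from -1.39 to 0.91. For SN_sucrose against SN_FANS_3x500g, 1 gene (Gm10800, which has no listed zero there) was called with zeros at the limit, 0 to 1 with each library left out, and Gm10801 ran from -1.37 to 0.029. Against SN_FANS_1x2000g, Gm10801 ran from -1.65 to 0.87 and Gm21738 from -0.48 to 0.063. The cause of each change was not tested beyond the library or barcode left out. RLE size factors changed no call, and at a clustering resolution of 1 the Gm10800 level of each class still named stayed within its interval. The macrophage or dendritic-like class of male nuclei (77 nuclei) was then no longer named, and the mesangial, mural or fibroblast-like class moved from 6.54 to 10.3 CPM.

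No paired analysis was possible because the labels give no replicate numbers and do not tell which libraries came from the same suspension. The planned tests among C57BL/6J cells, and of male Balb/c against C57BL/6J cells, were not run for the 4 genes, since these are not listed there. Depth limits the rest: most bulk counts in dissociated kidneys were 0 to 3 reads, and listed zeros in 10x files hide up to 9 UMIs.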
